A study of Homo sapiens with 4 samples.

Results

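The VEGF genes and other secreted regulators of vessel growth were followed in 2 human lines labelled as cervical squamous cell carcinoma after knockdown of DDX24, which encodes a DEAD-box RNA helicase. The set held 10 genes, picked by symbol for the lymphangiogenesis theme in the title of the study: VEGFA, VEGFB, VEGFC, PGF, ANGPTL4, ADM, IGF2, SEMA3F, EDN1 and EDN2. Of the 13113 genes in either table, all 10 were found, 8 in the SiHa table and 7 in the MS751 table. Both tables held 5 of them, namely VEGFA, VEGFB, ANGPTL4, ADM and SEMA3F. SiHa and MS751, which are established lines, each received either a control siRNA (siControl, genotype labelled WT) or siDDX24-1 (labelled DDX24 knockdown), and RNA was taken on day 2. All cultures were transfected with a lipid reagent in medium with 10% serum. Each of the 4 groups held 1 library, and knockdown rested on 1 siRNA, so no difference within a line has a replicate check and none carries a p-value. The 95% intervals cover counting error only.

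Vascular endothelial growth factors are secreted ligands of receptor tyrosine kinases on endothelial cells. VEGFA acts mainly on blood vessels through KDR and FLT1, VEGFC on lymphatic vessels through FLT4, and VEGFB and PGF bind FLT1. Tumour cells are a common source of these ligands, and low oxygen raises several of them (VEGFA, ADM and ANGPTL4) through hypoxia-inducible factors (HIF). Adrenomedullin (ADM) and the endothelins (EDN1, EDN2) are peptide hormones that act on vessels, IGF2 is a growth factor, and the semaphorin SEMA3F restrains vessel growth through NRP2.

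The listed counts summed to between 13159701 and 20116334 per library. For DDX24 itself the SiHa libraries held 3464 and 575 counts and the MS751 libraries 2072 and 993, siControl first, so that 15.3% and 43.4% of its scaled level remained. Exons of DDX24 overlap OTUB2 on the opposite strand over 7.4% of their length, and whether the counting used strand is not stated in these sources. AGRN, the gene in the title of the study, had log2 folds of -0.72 in SiHa and -0.66 in MS751. Of 11 squamous and epithelial markers, 7 were listed in SiHa (summed level 3567 CPM with siControl) and 4 in MS751 (141 CPM). KRT5, KRT14, KRT6A and TP63, defining markers of squamous epithelium, were listed in neither line, and CDH1, KRT17 and KRT19 were not listed in MS751. These unlisted markers thus do not bear out the squamous label, but SiHa listed the other 7 of the list, KRT17 and SFN included. SFN was at 221 CPM in SiHa and 12.8 CPM in MS751 (siControl, scaled over the 4 libraries). MS751 listed fewer of the epithelial markers. A gene under 1 CPM in either library of a line is unlisted, and the squamous label was not tested. Each comparison between lines is one of libraries named SiHa and MS751, whatever the origin of the cells. The 14 markers of endothelium gave 2 listed genes per line (summed levels of 18.5 and 54.8 CPM), with CDH5, VWF, KDR and PROX1 in neither. ESAM was listed in both lines, at 6.5 CPM in SiHa and 8.8 CPM in MS751 (siControl, scaled over the 4 libraries). The other endothelial marker in MS751 was FLT4, the VEGFC receptor, which gave most of the sum there. Fibroblast markers numbered 4 of 9 in SiHa (24.3 CPM) and 5 of 9 in MS751 (460 CPM, of which COL3A1 gave 362 CPM), and leukocyte markers 2 of 7 and 1 of 7 (220 and 3.78 CPM). In SiHa the leukocyte sum went from 220 CPM with siControl to 242 CPM with siDDX24-1. Nearly all of it came from the listed marker other than CD68, since CD68 was at 8.0 CPM when scaled over the 4 libraries. CD68 shares 81.7% of its exon length with another gene on the same strand. From siControl to siDDX24-1 the summed fibroblast level went from 24.3 to 14.8 CPM in SiHa and from 460 to 513 CPM in MS751. The fibroblast markers did not move together: 3 of 4 in SiHa and 1 of 5 in MS751 had folds below 0. That 1 was COL1A1, which went from 87.0 to 23.5 CPM in MS751 when scaled over the 4 libraries. The part of other cell types in the values below was not tested.

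Every member measured well above the lower limit of the tables was lower in the siDDX24-1 library than in the siControl library of its line. The set was chosen with earlier results of these data known, so the shares of all genes printed beside it are a description and not a test. In SiHa 7 of 8 folds lay below 0, against 50.4% of all 12189 genes, and 7 counting intervals lay wholly below 0, against 30.0%. In MS751 all 7 folds and their intervals lay below 0, against 50.0% and 36.1% of 12036 genes. No member had an interval wholly above 0 (background 30.2% in SiHa and 36.4% in MS751). At least 2-fold lower were 2 of 8 in SiHa (EDN2 and SEMA3F), against 3.05% of all genes, and 3 of 7 in MS751 (IGF2, ADM and VEGFB), against 8.55%. None was at least 2-fold higher in either line (background 1.46% and 3.74%). The median log2 fold was -0.47 over the members listed in SiHa and -0.99 over those in MS751, beside medians near 0 over all genes of each line (-0.0041 and 0.00081). Fewer cells of a type and less RNA per cell cannot be told apart in such bulk libraries.

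**Figure D1:**
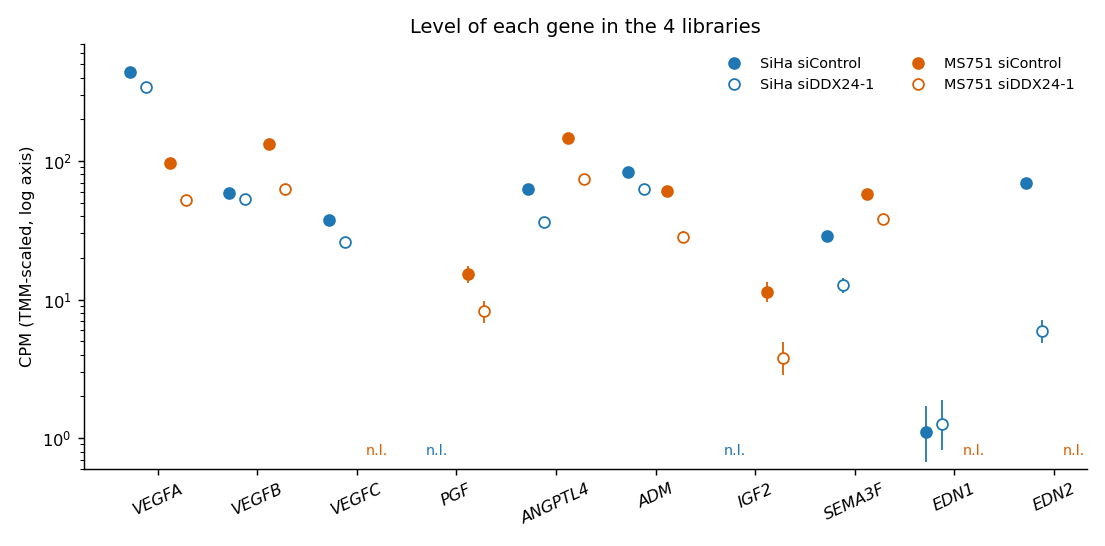
Level of each gene in the 4 libraries, as CPM scaled by TMM within each line on a log axis, with 95% Poisson intervals that are mostly smaller than the points; n.l. marks a gene not listed for that line. Levels are not per length, so points should be compared within a gene, where the open siDDX24-1 point sits below the filled siControl point in all cases but EDN1.

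VEGFA (ENSG00000112715, chromosome 6, 43770184 to 43786487, plus strand of GRCh38), the main growth factor of blood vessels, gave 7914 counts in the SiHa siControl library and 6798 in the knockdown library, and 1284 and 767 in those of MS751. Scaled levels were 438 and 345 CPM in SiHa and 97.1 and 52.5 CPM in MS751, so both SiHa libraries stood above both MS751 libraries. The log2 fold was -0.34 in SiHa (95% interval -0.39 to -0.30) and -0.89 in MS751 (-1.02 to -0.76). These are 78.9% and 54.1% of the control level.

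VEGFB (ENSG00000173511, chromosome 11, 64234538 to 64238793, plus strand), a ligand of FLT1, differed most between the lines in its fold. SiHa had 1062 and 1044 counts, and MS751 had 1757 and 919 counts, siControl first. The log2 fold in SiHa was -0.15 (-0.27 to -0.023) and that in MS751 was -1.08 (-1.19 to -0.96). With a smooth trend of the fold on transcript GC content removed, the SiHa value became 0.075 and that of MS751 became -0.66, so the direction in SiHa depends on that step.

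VEGFC (ENSG00000150630, chromosome 4, 176683538 to 176792727, minus strand), the principal growth factor of lymphatic vessels, was found in the SiHa table and not in that of MS751. Counts were 678 (37.5 CPM) in the control and 515 (26.2 CPM) after knockdown, a level at 69.8% of control (log2 fold -0.52, -0.69 to -0.35). PGF (ENSG00000119630, chromosome 14, 74941834 to 74955784, minus strand), which encodes placental growth factor, was listed in MS751 alone, with 201 and 120 counts (15.2 and 8.22 CPM). Its log2 fold of -0.88 (-1.23 to -0.55) had a wider interval than that of VEGFA in the same line, at nearly the same value. VEGFD, the other lymphatic ligand of the family, was listed in neither line.

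The mix of VEGFA and VEGFB transcripts differed between the lines by far more than between siRNAs. Of the counts of both genes together, VEGFA made up 88.2% in SiHa siControl (exact binomial 95% interval 87.5 to 88.8) and 86.7% in SiHa siDDX24-1 (85.9 to 87.4). In MS751 its part was 42.2% (40.5 to 44.0) and 45.5% (43.1 to 47.9). The knockdown library thus stood slightly below its control in SiHa, and above it in MS751 with overlapping intervals. Gene lengths are the same in all 4 libraries, so they do not enter this comparison between libraries.

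Endothelin 2 (EDN2, ENSG00000127129, chromosome 1, 41478775 to 41484673, minus strand), a vasoconstrictor peptide, had by far the lowest fold of the set. The SiHa control library held 1246 counts (68.9 CPM) and the knockdown library 116 (5.89 CPM), and the MS751 table did not list the gene. The level was 11.6-fold lower (log2 fold -3.54, 95% interval -3.83 to -3.27), with only 2 of 12189 genes lower. EDN1 (ENSG00000078401, chromosome 6, 12290363 to 12297194, plus strand), the gene of endothelin 1, had 20 and 25 counts in SiHa (1.11 and 1.27 CPM). Its interval of the log2 fold, -0.71 to 1.12, spans 0, so no difference was detectable at this depth. The deposited tables hold no gene under 1 CPM in either library of a line, and EDN1 lies at that limit.

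Adrenomedullin (ADM, ENSG00000148926, chromosome 11, 10304680 to 10307397, plus strand) had 1507 and 1231 counts in SiHa and 801 and 414 counts in MS751. Scaled levels were 83.3 and 62.5 CPM, and 60.6 and 28.4 CPM. The log2 folds were -0.41 (-0.52 to -0.30) in SiHa and -1.09 (-1.27 to -0.92) in MS751. Within each line the intervals of both levels were apart, and the MS751 fold was the further from 0.

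ANGPTL4 (ENSG00000167772, chromosome 19, 8363289 to 8374373, plus strand), which encodes an angiopoietin-like protein that inhibits lipoprotein lipase and acts on vessels, had the closest folds in the 2 lines. Counts were 1143 and 714 in SiHa and 1948 and 1086 in MS751. Its log2 fold was -0.80 (-0.94 to -0.67) in SiHa and -0.99 (-1.09 to -0.88) in MS751. The intervals overlap slightly, and the ratio to control was 57.4% and 50.5%.

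The upstream sequences of EDN2, ADM and ANGPTL4 are shown because EDN2 had the lowest fold and because ADM and ANGPTL4 were lower in both lines and belong to the known HIF-induced genes. Each is the 250 bases before an annotated start, from RefSeq on GRCh38.p14, 5′ to 3′ on the strand of the gene. The gene positions given above are from GENCODE 29 and begin further upstream for ADM and ANGPTL4. The windows of ADM and ANGPTL4 therefore lie inside those positions. Capitals mark the HIF core (ACGTG or GCGTG, or their reverse complements) and the TATA box letters TATAAA or their reverse complement.
EDN2 (chr1:41484684-41484933, minus strand): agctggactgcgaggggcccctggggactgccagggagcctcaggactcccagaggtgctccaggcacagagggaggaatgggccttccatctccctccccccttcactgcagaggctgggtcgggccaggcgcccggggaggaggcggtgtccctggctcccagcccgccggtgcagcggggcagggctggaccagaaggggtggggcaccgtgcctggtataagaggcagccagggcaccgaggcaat
ADM (chr11:10304823-10305072, plus strand): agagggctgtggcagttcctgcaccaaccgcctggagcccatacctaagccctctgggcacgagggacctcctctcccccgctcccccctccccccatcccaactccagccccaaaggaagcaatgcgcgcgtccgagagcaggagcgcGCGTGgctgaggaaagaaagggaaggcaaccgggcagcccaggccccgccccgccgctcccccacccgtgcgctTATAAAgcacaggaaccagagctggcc
ANGPTL4 (chr19:8363905-8364154, plus strand): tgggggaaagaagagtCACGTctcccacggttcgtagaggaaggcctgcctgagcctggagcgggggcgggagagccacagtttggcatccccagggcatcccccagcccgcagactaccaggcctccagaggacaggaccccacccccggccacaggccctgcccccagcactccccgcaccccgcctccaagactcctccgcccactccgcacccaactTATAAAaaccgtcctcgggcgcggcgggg
In ADM the HIF core letters begin 101 bases before the start, and in ANGPTL4 they begin 234 bases before it. TATAAA begins 27 bases before the start in ADM and 29 bases before it in ANGPTL4, and neither motif is in the EDN2 window. Only exact letters were sought, and the EDN2 window does hold the similar letters TATAAG near its end. These letters are common: 43.2% of 35116 RefSeq windows of the same length hold the HIF core and 10.7% hold TATAAA, on either strand. The HIF core also lies within CACGTG, the E-box letters. Of the 10 genes, 8 matched RefSeq windows (VEGFA and IGF2 did not), with 13 windows in all. The HIF core was in 7 of these 13 windows, a share near that of all windows, and they belong to 6 genes, some with several windows. The AP-1 letters TGACTCA or TGAGTCA were in none of these 13 windows, against 4.2% of all windows.

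IGF2 (ENSG00000167244, chromosome 11, 2129112 to 2149603, minus strand), an imprinted fetal growth factor, was listed in MS751 alone. Its 150 counts (11.3 CPM) in the control stood beside 55 (3.77 CPM) after knockdown, a log2 fold of -1.57 (-2.06 to -1.14) and the lowest of the set in that line. The count is uncertain, since 20.9% of its exon length is shared with the readthrough gene INS-IGF2 and 73.7% with a further protein-coding gene on the same strand.

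SEMA3F (ENSG00000001617, chromosome 3, 50155045 to 50189075, plus strand) is the member known as an inhibitor of vessel growth. It had 518 and 249 counts in SiHa (28.6 and 12.6 CPM) and 761 and 560 counts in MS751 (57.6 and 38.4 CPM). The log2 fold was -1.18 (-1.40 to -0.96) in SiHa and -0.58 (-0.75 to -0.43) in MS751. Among the 5 genes listed in both lines, SEMA3F alone had the fold further from 0 in SiHa, while the other 4 had it in MS751. The inhibitor SEMA3F and the other 4 of these genes thus had folds of the same sign, below 0, in both lines. With the GC trend removed, VEGFB in SiHa was at 0.075 and no longer shared that sign.

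**Figure D2:**
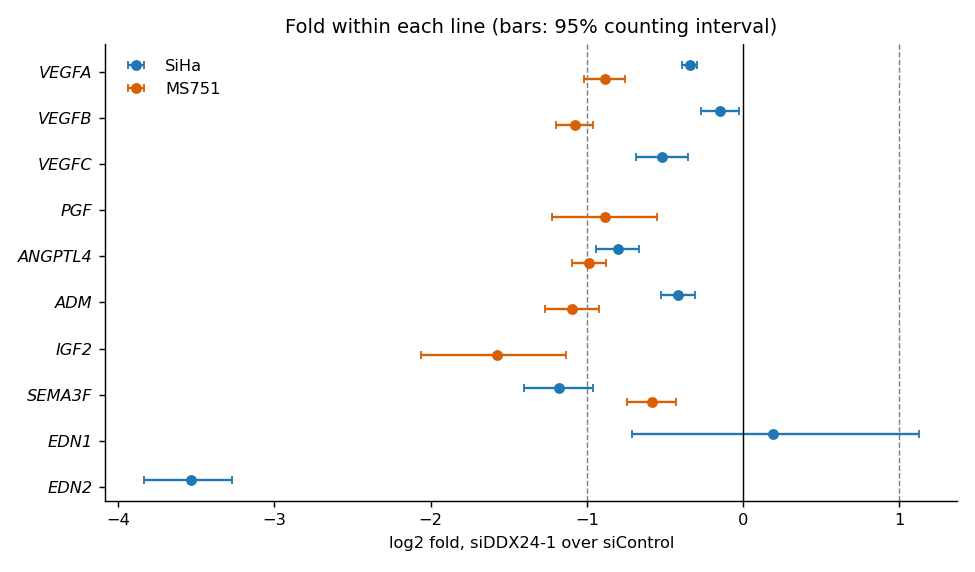
Log2 fold of siDDX24-1 over siControl for each gene in SiHa (blue) and MS751 (orange), with 95% counting intervals; dashed lines mark 2-fold and each point is 1 pair of libraries. EDN2 in SiHa lies at -3.54, EDN1 alone has an interval across 0, and VEGFB and ADM in MS751 lie just past 2-fold lower.

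A change shared by SiHa and MS751 was sought for the 5 genes in both tables with edgeR's quasi-likelihood test over 11112 genes, with the line as a block. All 5 had folds below 0 in both lines, as had 31.4% of all shared genes, none was at least 2-fold lower in both (background 0.900%), and none passed the test. The test called 3 genes lower (0.0270% of those tested) and 2 higher (0.0180%), RAB43, AFF1 and BLOC1S6 lower and FMC1-LUC7L2 and RAB31 higher, named after their values were seen. At an unadjusted p under 0.05 it had 922 lower (8.30%) and 482 higher (4.34%), and 4 of the 5 members were among the lower. ANGPTL4 had a common log2 fold of -0.91 with an SE of 0.22 (edgeR adjusted p = 0.25), SEMA3F -0.90 with an SE of 0.25 (adjusted p = 0.30) and ADM -0.77 with an SE of 0.25 (adjusted p = 0.33). VEGFA was at -0.63 with an SE of 0.23 (edgeR adjusted p = 0.35) and VEGFB at -0.63 with an SE of 0.28 (adjusted p = 0.40). With the GC trend as an offset the common log2 folds were nearer to 0, at -0.54 for ANGPTL4, -0.59 for SEMA3F, -0.58 for ADM, -0.53 for VEGFA and -0.31 for VEGFB. DESeq2 and limma also called none of the 5. A change that differs in size between the lines counts as spread in this test.

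Baseline levels differed between the lines in a gene-specific way. Between the siControl libraries VEGFA was 4.78-fold higher in SiHa (log2 ratio 2.26, 95% interval 2.17 to 2.34), above 97.1% of the shared genes. VEGFB was 2.13-fold lower in SiHa (-1.09, -1.20 to -0.98) and ANGPTL4 2.20-fold lower (-1.13, -1.24 to -1.03). SEMA3F lay below 2-fold, at -0.92 (-1.09 to -0.76), and ADM at 0.54 (0.42 to 0.67). At least 2-fold higher in SiHa was thus 1 of 5 (14.5% of all shared genes) and at least 2-fold lower were 2 of 5 (14.8%).

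Between the siDDX24-1 libraries the same ratios shifted for most of the 5 genes. The log2 ratio of VEGFA was 2.81 and that of ADM 1.24, both further above 0 than at baseline. VEGFB came to -0.15, close to equal levels, SEMA3F was at -1.50 and ANGPTL4 at -0.94. The change of these ratios is the difference of the folds between lines, which has no test with 1 library per group.

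**Figure D3:**
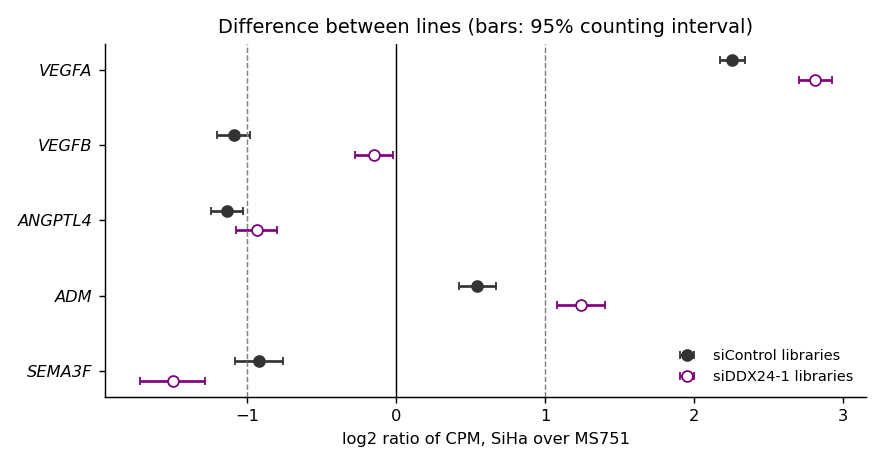
Log2 ratio of CPM in SiHa over MS751 for the 5 genes listed in both lines, from the siControl libraries (filled) and the siDDX24-1 libraries (open), with 95% counting intervals and dashed lines at 2-fold. VEGFA and ADM lie to the right, higher in SiHa, and VEGFB moves from -1.09 to -0.15.

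The line term of the same edgeR fit compares both libraries of a line with both of the other. It called 17.9% of the 11112 genes higher in SiHa and 17.6% lower (23.6% and 23.1% at an unadjusted p under 0.05), and 4 of the 5 members. VEGFA was higher in SiHa by 2.54 on the log2 scale with an SE of 0.24 (edgeR adjusted p = 0.00031), and ADM by 0.89 with an SE of 0.25 (adjusted p = 0.030). SEMA3F was lower in SiHa, at -1.21 with an SE of 0.26 (edgeR adjusted p = 0.0093), and ANGPTL4 at -1.04 with an SE of 0.22 (adjusted p = 0.0085). VEGFB, at -0.62 with an SE of 0.28, did not pass (edgeR adjusted p = 0.12). All 4 calls held under the alternatives of scaling, tool, GC offset and a higher CPM minimum, with ADM closest to the threshold (highest adjusted p 0.049).

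The order of levels between genes was read from CPM per kb of merged exon length in the siControl libraries. In SiHa it ran from EDN2 (42.0 CPM per kb) and VEGFB (38.0), whose counting intervals overlap, to ADM (30.7) and VEGFA (30.3), which overlap too. ANGPTL4 (25.5), VEGFC (15.5), SEMA3F (5.93) and EDN1 (0.54) followed in CPM per kb. MS751 had VEGFB first (86.0 CPM per kb), then ANGPTL4 (59.4), ADM (22.3), SEMA3F (11.9), VEGFA (6.73), PGF (2.55) and IGF2 (1.63). The place of VEGFA in particular rests on the length used, since its merged exons come to 14431 bases. Per kb of the longest coding transcript (3535 bases), a choice made after seeing the data, VEGFA was at 124 CPM per kb in SiHa, the highest there, and at 27.5 in MS751, above SEMA3F (15.1). That length also put ADM (44.1 CPM per kb) above VEGFB (42.5) in SiHa.

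The genes closest to VEGFA over the 4 libraries were PLAUR, PKP3, NFKBIZ, F2RL1 and CDC42BPG. The measure was the Euclidean distance between log2 CPM values centred on each gene's mean, over 9970 genes that averaged 5 CPM or more in each line. Distances ran from 0.057 for PLAUR to 0.18 for CDC42BPG, against a median of 2.66 over all genes. VEGFA itself lay at 1.44 and 1.09 in SiHa and -0.81 and -1.72 in MS751 (siControl first) around its mean. Of the other members ADM was nearest, at 1.65 and rank 910, and SEMA3F farthest, at 3.80. These 4 values mostly hold the difference between the lines.

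Several receptors were listed in 1 line only. FLT4, the VEGFC receptor, was listed in MS751 (610 and 517 counts, log2 fold -0.38), where VEGFC was not. Its coreceptor NRP2, also the receptor of SEMA3F, was listed in SiHa with 113 counts in each library (log2 fold -0.12). The coreceptor NRP1 had 806 and 1068 counts in SiHa (0.28) and 21 and 32 in MS751 (0.45, interval across 0). KDR and FLT1 were listed in neither line. CALCRL, the adrenomedullin receptor, was listed in MS751 alone (775 and 898 counts), whereas its partner RAMP2 was listed in SiHa alone (71 and 87 counts). PAM, the enzyme that amidates adrenomedullin, had log2 folds of -0.16 in SiHa and -0.54 in MS751.

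Other ligands and processing enzymes had 24 of 37 list members in SiHa and 19 in MS751, with median log2 folds of -0.079 and -0.36. At least 2-fold lower were 2 in each line and none was higher. The 2-fold counts of this and the following lists stand against 3.05% of all genes lower in SiHa and 8.55% in MS751, and 2 of 19 is near that share. ANG, which encodes angiogenin, had 212 and 40 counts in SiHa (log2 fold -2.50) and 282 and 137 in MS751 (-1.18), but 47.2% of its exon length is shared with RNASE4. CXCL8, a chemokine, was at -1.65 in SiHa, and CCN1, a matrix-associated factor, at -1.11 in MS751 and 0.070 in SiHa. The abundant ligand genes LGALS1 (-0.61 and -0.44, SiHa first) and HDGF (0.36 and 0.62) lay on opposite sides of 0.

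The list of 25 receptor genes had 17 in the SiHa table and 16 in that of MS751, medians of -0.16 and -0.023, and the single one past 2-fold was FGFR4 in MS751 (346 and 122 counts, log2 fold -1.64). The integrin subunit genes ITGAV (0.046 and -0.12, SiHa first) and ITGA5 (-0.82 and 0.052) and the ephrin receptor gene EPHA2 (-0.16 and -0.044) were the most abundant. The list drawn up as inhibitors of vessel growth had medians of -0.033 over 17 genes in SiHa and -0.23 over 15 in MS751. Whether each of its genes, VASH2 and SEMA3C included, restrains vessel growth was not tested. SEMA3B, a semaphorin related to SEMA3F, was at least 2-fold lower in both lines (452 and 225 counts, and 1106 and 285 counts, log2 folds -1.13 and -2.10). VASH2, which encodes a vasohibin, was at -2.28 in MS751 (276 and 62 counts) and at 0.49 in SiHa with 43 and 66 counts and an interval across 0. The protease inhibitor genes TIMP2 (-0.13 and -0.71) and TIMP3 (-0.35, listed in SiHa alone) and the semaphorin gene SEMA3C (0.39 and -0.21) were the most abundant of the list.

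The IGF axis had medians of 0.013 over 16 genes in SiHa and -0.56 over 11 in MS751. In MS751, where IGF2 was listed, 3 were at least 2-fold lower, against 8.55% of all genes: the binding protein gene IGFBP2 (-1.75), the receptor gene IGF1R (253 and 99 counts, -1.49) and STC2 (-1.37), an inhibitor of the protease that releases IGF from binding proteins. IGF1R had 1238 and 1291 counts in SiHa (-0.062), and IGFBP5 (-1.07) was the one gene past 2-fold there. IGFBP6 (-0.66 and -0.56), IGFBP4 (0.24) and STC1 (0.19), the latter both listed in SiHa alone, were the most abundant.

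The other adrenomedullin and endothelin genes had medians of 0.17 over 9 genes in SiHa and 0.094 over 4 in MS751, on the other side of 0 from ADM and EDN2. ECE1, which cleaves big endothelin, was at 0.072 and -0.094, and ACKR3, a scavenging receptor for chemokines and adrenomedullin, at 0.36 in SiHa. CRCP, a protein linked to calcitonin family receptors and also an RNA polymerase III subunit, was the single one past 2-fold, higher in MS751 (56 and 205 counts, 1.71). Its exons overlap a further protein-coding gene over 10.1% of their length.

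Semaphorin receptors and effectors had medians of -0.20 over 12 genes in SiHa and -0.52 over 11 in MS751. At least 2-fold lower in MS751 were 3, PLXNB3 (138 and 48 counts, -1.65, 20.4% of exon length shared with SRPK3), L1CAM (-1.36) and PLXNA3 (-1.16), against 8.55% of all genes, and none in SiHa. PLXNB2 (-0.30 and -0.35) and PLXND1 (0.029 and -0.55) were abundant plexin genes in both lines.

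Of 33 hypoxia regulators and HIF targets 32 were listed in each line, with medians of -0.16 in SiHa and -0.31 in MS751. In MS751 8 were at least 2-fold lower, of which the lowest were CA9 (75 and 24 counts, -1.74, with 38.5% of exon length shared with ARHGEF39 on the opposite strand), NDRG1 (-1.50), DDIT4 (-1.47) and LOX (-1.46). HIF1A, the oxygen-regulated transcription factor subunit, had the other sign, at 0.53 in SiHa (19207 and 30259 counts) and 0.31 in MS751. The glycolytic genes ENO1 (-0.12 and -0.11), PGK1 (-0.055 and -0.37) and LDHA (0.44 and 0.56) did not share 1 direction. In the test common to both lines no gene of any of these lists passed (edgeR), and DDX24 had an adjusted p of 0.17 by the same test.

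**Figure D4:**
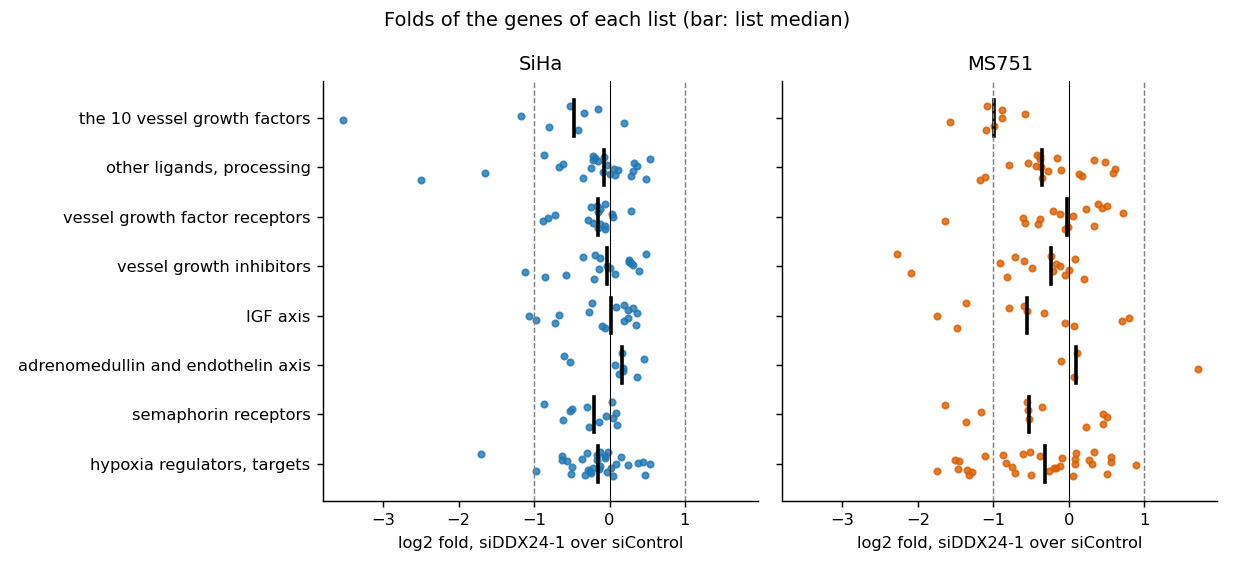
Log2 fold of siDDX24-1 over siControl for every listed gene of each list, SiHa left and MS751 right, on the same axis; black bars are list medians and dashed lines mark 2-fold. The 10 vessel growth factors have medians of -0.47 and -0.99, and the adrenomedullin and endothelin axis 0.17 and 0.094.

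Transcript GC content moved with the fold and with membership. Across genes, which are not independent replicates, Spearman's rho of the fold with GC content was -0.34 in SiHa (12185 genes) and -0.38 in MS751 (12032 genes). Members had a median GC content of 59.6% in SiHa and 61.2% in MS751, against 49.3% and 49.4% over all genes, and EDN1, at 45.1%, was the most GC-poor. Removing the trend left EDN2 at -3.36, SEMA3F at -0.97, VEGFC at -0.57, ANGPTL4 at -0.55, ADM at -0.27, VEGFA at -0.26, VEGFB at 0.075 and EDN1 at 0.086 in SiHa. In MS751 it left IGF2 at -1.31, ADM at -0.85, VEGFA at -0.75, VEGFB at -0.66, PGF at -0.52, ANGPTL4 at -0.51 and SEMA3F at -0.20. With the trend removed, 1 member in each line was still at least 2-fold lower, EDN2 in SiHa (1 of 8, against 2.49% of all genes under that setting) and IGF2 in MS751 (1 of 7, against 7.00%), and VEGFB in SiHa alone changed sign.

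**Figure D5:**
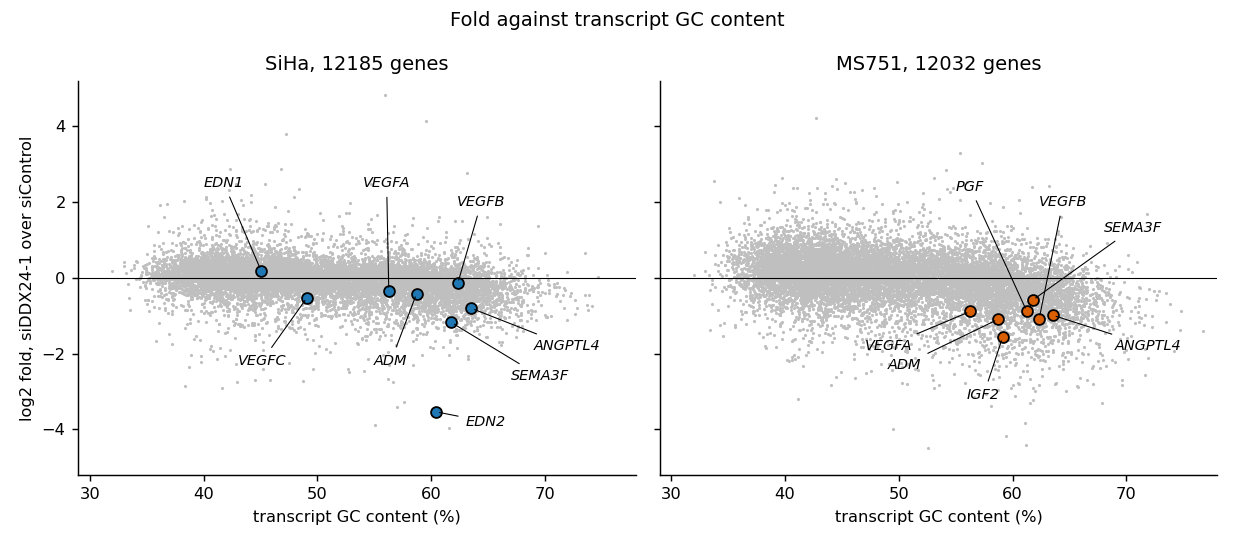
Log2 fold of siDDX24-1 over siControl against transcript GC content in percent, each grey point 1 gene, SiHa left and MS751 right, with the vessel growth factors in colour. Grey points slope downward with GC content (rho -0.34 and -0.38), and most of the named genes lie between 56.3% and 63.5%, with EDN2 far below the cloud.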

How the data were processed

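RNA-seq gene counts of 4 libraries were used, 1 per line and siRNA. The authors deposited raw read counts per Ensembl gene as 1 table for each line. The submitters' processing notes name StringTie 1.3.4d, fastp 0.23.2, HISAT2 2.0.4 and the build GRCh38.p12 (hg38) without saying what each did. The counter and any strand setting are not given in these sources. Every listed gene had at least 1 CPM in both libraries of its line (lowest 1.02), so genes silent in either are missing. Repeated rows (70 in SiHa, 73 in MS751) were dropped, and of identifiers sharing a symbol the highest was kept. Identifiers were matched to a list of gene names (12182 of 12191 in SiHa, 12028 of 12037 in MS751) and to GENCODE 29 on GRCh38 (all), which gave positions, exon lengths and GC content.

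Log2 CPM used edgeR 4.0.16 in R 4.3.3 with TMM scaling within a line and added a prior of 1 count, for genes averaging 1 CPM or more. Ratios carry exact conditional 95% intervals and levels exact Poisson intervals. Without molecular identifiers PCR copies count as separate reads, so these cover counting error at most. Both lines together were fitted with edgeR's quasi-likelihood test (terms line and siRNA, TMM over 4 libraries, Benjamini-Hochberg adjusted p of 0.05), with each SE taken as the size of the log2 fold over the root of its F. Each line and siRNA had 1 library, so p-values measure only the spread between these libraries and not that between replicate cultures. The functions were run on simulated counts with the same spread set for every gene, as a check of the code only. Alternatives used DESeq2 1.42.0, limma 3.58.1 and mgcv 1.9.3.

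The members, lists and rules were chosen with earlier results of these data known. Named genes were the members, DDX24, AGRN, the main VEGF receptors, and from each list up to 4 genes per line past 2-fold and the 3 most abundant. PAM, RAMP2, HIF1A and the genes called in the common test were added after their values were seen. A gene that this rule names in the hypoxia list is not reported here.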

Additional observations from a re-analysis of the deposited data

Results flagged for a closer look

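Among the genes named, CCN1 and SEMA3C had folds of opposite sign in the 2 lines with both counting intervals clear of 0. CCN1, a matrix-associated growth factor gene, had a log2 fold of 0.07 in SiHa (95% interval 0.03 to 0.11, 11037 and 12613 counts) and -1.11 in MS751 (-1.15 to -1.07, 13642 and 6992 counts). SEMA3C, a secreted semaphorin gene, had 0.39 in SiHa (0.31 to 0.47, 2160 and 3072 counts) and -0.21 in MS751 (-0.26 to -0.16, 6170 and 5877 counts). With 1 library per group the difference between lines was not tested. None of the 5 vessel growth factors listed in both lines had opposite signs.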

How the results depend on the processing

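Over 15 member folds within a line and up to 7 other settings each, 104 values were computed and 1 changed the sign of a fold whose interval excluded 0: VEGFB in SiHa came to 0.075 with the GC trend removed, and 10 others moved beyond their counting interval. That setting left 1 member at least 2-fold lower in SiHa and 1 in MS751. At a threshold of 1.5-fold, 3 of 8 members were lower in SiHa and 6 of 7 in MS751, beside 1219 genes lower (10.0%) and 567 higher in SiHa and 2218 lower (18.4%) and 1645 higher in MS751. Dropping the minimum of 1 CPM could change nothing, since the tables hold no gene under it. EDN1 gave no value at a mean of at least 5 CPM. For the change common to both lines, edgeR called 0 genes lower and 0 higher with DESeq2 size factors (893 and 383 at an unadjusted p under 0.05), at a mean of at least 5 CPM (842 and 364) and with the GC trend as an offset (655 and 361), limma called 3 and 2, and DESeq2 called 71 lower and 26 higher. None of these called a member, and the adjusted p of ANGPTL4 ran from 0.10 to 0.54. The cause of these differences was not tested. In the siDDX24-1 libraries 2 members were at least 2-fold higher in SiHa than in MS751 and 1 lower. With 1 library per group, no paired analysis was possible other than the edgeR fit with the line as a block, which pairs both libraries of a line. Leaving out a library or a line leaves no residual degrees of freedom. Low counts limit EDN1, and the missing genes under 1 CPM limit every statement on genes listed in 1 line.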

Other observations

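The growth factor HGF and its receptor MET stood at unlike levels in the lines, which was not tested. All genes here were picked after their values were seen. HGF was listed in MS751 alone, at 3048 counts in the control and 2610 after knockdown (231 CPM at baseline, log2 fold -0.37). MET had 1645 and 1605 counts in SiHa (90.9 CPM at baseline, log2 fold -0.16) and 150 and 194 counts in MS751 (11.3 CPM, 0.23). Among inhibitors of vessel growth, SERPINF1 was listed in MS751 alone (3231 and 2542 counts) and TIMP3 in SiHa alone (20594 and 17562 counts), and THBS1 had 2505 and 3262 counts in SiHa beside 23 and 27 in MS751. EREG, which encodes the EGF receptor ligand epiregulin, was listed in SiHa alone, with 6088 and 7146 counts.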
